A study of Mus musculus with 4 samples.

Results

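The genes described here are the LIM, POU, NK and Pax homeobox factors, DNA-binding proteins that set the identity of cells along the axes of the embryo. They were chosen by symbol, as the rows whose name is Lhx and a number, Lmx1a or Lmx1b, Isl1 or Isl2, a Pou factor, an Nkx factor or a Pax factor, which gave 45 of the 18042 genes in the deposited table. Of these, 12 belonged to the LIM class, 13 to the POU class, 11 to the NK class and 9 to the Pax class. They were measured by RNA-seq in the dentate gyrus, the part of the hippocampus that makes granule neurons after birth. The mice were 2 Eed conditional knockout (Eed cKO) animals and 2 wild-type (WT) controls, all C57BL/6 and 14 days old. The Cre driver, the deleted exons, the cells that lost Eed and the controls' alleles were not stated in the labels.

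Eed is a core subunit of Polycomb repressive complex 2, which places the repressive methyl marks on lysine 27 of histone H3 and is known to hold developmental regulators silent outside the tissues that use them. LIM factors carry LIM domains that bind Ldb cofactors, POU factors join a POU-specific domain to a homeodomain, NK factors descend from a homeobox cluster of early animals, and Pax factors carry a paired domain. In the forebrain, Lhx2 is known for setting cortical and hippocampal identity, Lhx6 for interneurons born in the medial ganglionic eminence, the Pou3 factors for projection neurons and Pax6 for progenitors, while many of the other members are best known outside the forebrain.

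The libraries held 17433769 (Eed cKO A), 17263273 (Eed cKO B), 17789587 (WT A) and 17345946 (WT B) counts over the table. These were recovered as whole reads from the deposited group means, and A and B do not carry the replicate numbers of the sample titles. Eed itself had 133 and 142 counts in Eed cKO, against 251 and 301 counts in WT, which left 50.2% of the WT level in the tissue (limma with Benjamini-Hochberg adjustment, adjusted p = 0.0189). The libraries differed in other ways. Xist had 3809 and 8 counts in Eed cKO, against 11 and 8 in WT, and the Y-linked Ddx3y had 0 and 468 counts in Eed cKO, against 562 and 451 in WT, so Eed cKO A looked female and the others male. Ttr, a choroid plexus gene, had 35706 and 23697 counts in Eed cKO, against 33234 and 110 in WT, so WT B stood apart. The part of sex and of choroid plexus in the results below was not tested beyond leaving out each library. In bulk tissue, fewer cells of a type and less RNA per cell cannot be told apart.

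Of the 45 genes, 29 reached 10 normalized counts in 2 or more libraries and were tested. Among them 8 were higher in Eed cKO (Lhx9, Lhx4, Pou4f1, Pou4f2, Nkx2-2, Pax1 and Pax9 among them), 1 was lower (Lhx2) and 20 did not pass an adjusted p of 0.05 in limma with Benjamini-Hochberg adjustment over 15020 genes. Over all genes tested, 6.44% were called, 3.54% higher and 2.90% lower. In edgeR the same 9 members were called, beside 6.65% of all genes (3.78% higher and 2.87% lower). In DESeq2 the heart factor Nkx2-5 took the place of Pax9, and 6.95% of all genes were called (3.71% higher and 3.23% lower). For 13 of the 29, the limma p before adjustment was under 0.05, as it was for 24.8% of all genes tested (3722 of 15020), the share against which the further counts of unadjusted p-values are to be read. The median log2 fold change was 0.61 for the 29 members, also with genes lacking WT reads set at their fold over a floor of 3 WT counts, and 0.00 (-0.00318) for all genes tested. The filter bears on these counts, because 7 members (Isl1, Lhx4, Pax1, Pax5, Pax9, Pou4f1 and Pou4f2) passed it only through their Eed cKO libraries, so that the filter set their direction, and 5 of them were among the calls. Of the 19 members with at least 10 normalized counts in both WT libraries, 3 were higher (Lhx9 and Nkx2-2 among them), 1 was lower (Lhx2) and 15 did not pass, with a median log2 fold change of 0.05. All genes with that WT level were called higher in 3.19% and lower in 3.02%, with a median of -0.01.

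Without regard to the filter, the Eed cKO libraries lay above both WT libraries for 27 of the 45 genes, below them for 3 (Lhx2 and Pou3f4 among them) and overlapped them for 15. In the whole table, 28.4% of genes lay above and 25.8% below. For 10 members no read was recorded in either WT library, and 9 of these (Lhx4, Pou4f1, Pou4f2, Nkx2-3, Nkx2-4, Nkx2-5, Nkx2-9, Pax1 and Pax3) had reads in both Eed cKO libraries, a pattern seen in 0.992% of all genes. The tenth, Nkx3-2, had 7 and 0 counts in Eed cKO. Together the 10 genes summed to 193 and 169 counts in Eed cKO, against 0 and 0 in WT. The reverse pattern, reads in both WT libraries and none in Eed cKO, was seen in 0 members and in 0.327% of all genes. Every gene of the table has at least 3 counts over the 4 libraries, so genes with fewer were not analysed here.

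**Figure D1:**
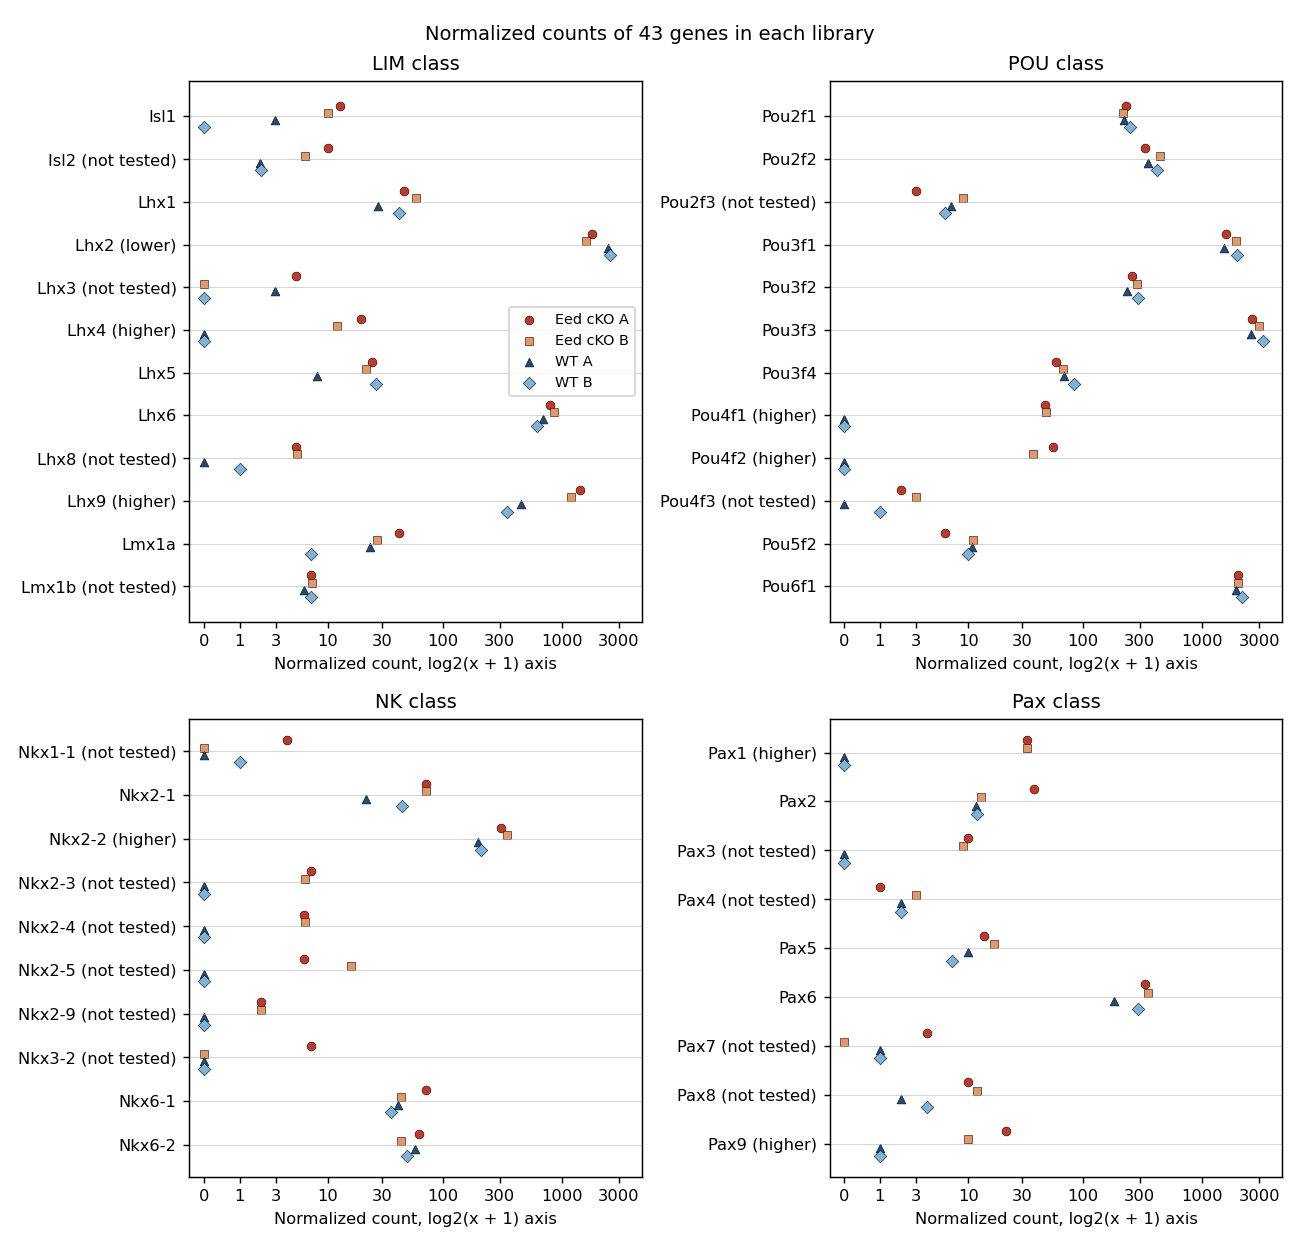
Normalized counts of 43 of the 45 genes (rows, by class) in Eed cKO A, Eed cKO B, WT A and WT B, on a log2(x + 1) axis, with the limma call beside the name. Pou4f1, Pou4f2, Lhx4 and Pax1 sit at 0 in both WT libraries and between 12 and 55 counts in the Eed cKO libraries, the Eed cKO symbols of Lhx9 lie to the right of the WT ones and those of Lhx2 to the left, and the symbols of Pou3f1, Pou3f2 and Pou3f3 overlap.

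The sequences just before the start of 5 members are shown because they span the range of responses in this set. Pou4f1, Pou4f2 and Nkx2-3 had no WT read and were read in both Eed cKO libraries, Lhx2 was the member called lower, and Pou3f2 was expressed in both groups with no call. The windows are chr14:104468000-104468249 (Pou4f1, minus strand, 47 CG), chr8:78436648-78436897 (Pou4f2, minus strand, 17 CG), chr19:43612075-43612324 (Nkx2-3, plus strand, 14 CG), chr2:38339031-38339280 (Lhx2, plus strand, 25 CG) and chr4:22488367-22488616 (Pou3f2, minus strand, 18 CG). Each line gives the 250 bases that end just before the RefSeq transcription start, 5′ to 3′ on the strand of the gene, in build GRCm38.p6. Capitals mark CG dinucleotides, the letters that make up CpG islands, where Polycomb is known to act in mammals.
Pou4f1: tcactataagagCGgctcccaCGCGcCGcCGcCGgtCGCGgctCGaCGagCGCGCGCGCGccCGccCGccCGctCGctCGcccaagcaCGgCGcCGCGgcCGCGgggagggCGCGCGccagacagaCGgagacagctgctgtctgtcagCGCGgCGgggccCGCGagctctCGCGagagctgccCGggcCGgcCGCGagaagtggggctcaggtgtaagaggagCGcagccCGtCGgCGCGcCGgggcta
Pou4f2: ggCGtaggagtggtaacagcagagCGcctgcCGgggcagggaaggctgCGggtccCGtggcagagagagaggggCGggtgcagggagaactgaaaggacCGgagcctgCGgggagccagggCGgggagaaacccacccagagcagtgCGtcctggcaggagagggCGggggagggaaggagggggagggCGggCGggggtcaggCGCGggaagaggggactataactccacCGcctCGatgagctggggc
Nkx2-3: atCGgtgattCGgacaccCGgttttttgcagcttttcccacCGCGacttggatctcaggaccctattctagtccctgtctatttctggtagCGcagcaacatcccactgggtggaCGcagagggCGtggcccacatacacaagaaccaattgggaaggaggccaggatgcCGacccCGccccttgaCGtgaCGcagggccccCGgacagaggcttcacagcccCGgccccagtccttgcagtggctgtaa
Lhx2: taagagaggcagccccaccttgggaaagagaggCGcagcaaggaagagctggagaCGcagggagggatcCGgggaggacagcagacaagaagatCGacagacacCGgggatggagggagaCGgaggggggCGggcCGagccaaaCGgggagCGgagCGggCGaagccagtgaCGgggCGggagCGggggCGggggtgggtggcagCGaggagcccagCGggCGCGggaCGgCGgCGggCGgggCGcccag
Pou3f2: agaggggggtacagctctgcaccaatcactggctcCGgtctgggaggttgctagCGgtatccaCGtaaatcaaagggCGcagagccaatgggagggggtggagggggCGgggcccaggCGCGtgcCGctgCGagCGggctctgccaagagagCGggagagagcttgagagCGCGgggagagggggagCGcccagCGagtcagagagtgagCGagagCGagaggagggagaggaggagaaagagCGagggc
Such a CG-rich start was shared by most of the set. RefSeq promoters were matched for 37 members, with a median of 15 CG (4 to 47), against a median of 6 CG in all 32851 RefSeq promoters. At least 10 CG were found in 28 of the 37 (75.7%), against 37.8% of all promoters. Only 0.250% of promoters held as many CG as Pou4f1. The median was 10 CG for the 7 matched members called higher, 18 for the 17 that did not pass and 14 for the 9 with no WT read. For 8 of the 37, the RefSeq start lay more than 1000 bases from the gene start in GENCODE, Lhx9, Lhx4, Nkx2-2, Pax1 and Pax9 among them, so their CG counts describe the RefSeq start only. The homeodomain core TAATTA was found in 0 of the 37, against 4.84% of all promoters, and the octamer ATGCAAAT, searched on both strands, in 0 of the 37, against 1.60%. A match or its lack describes these letters in this window only.

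**Figure D2:**
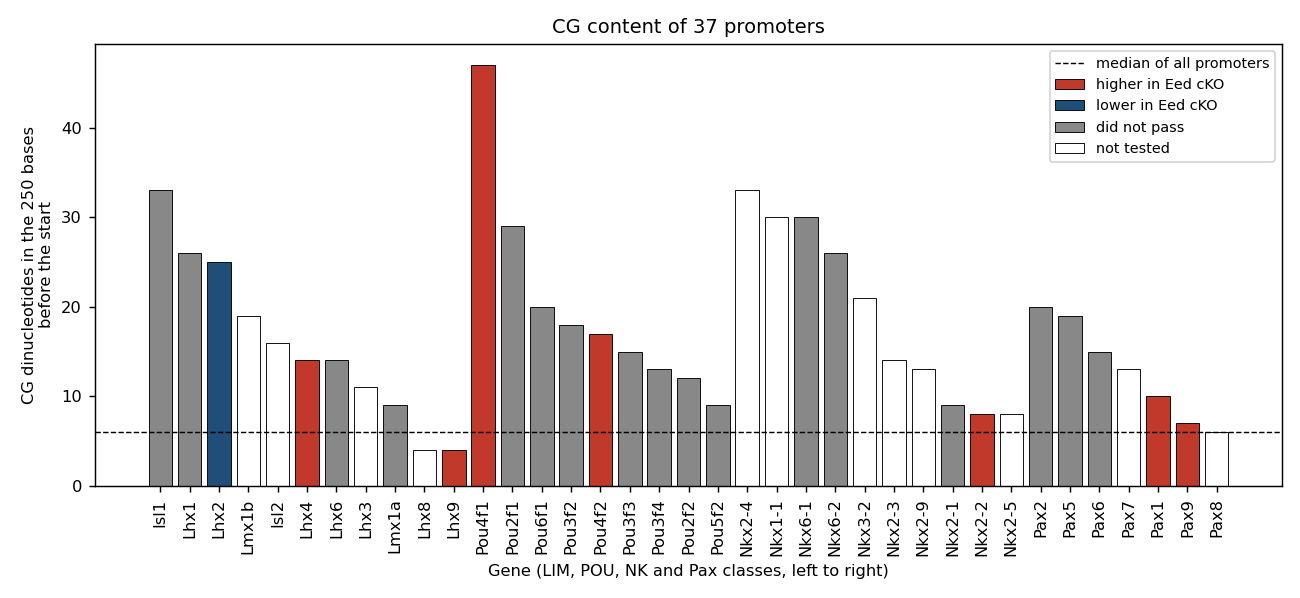
CG dinucleotides in the 250 bases before the RefSeq start of 37 members, ordered by class and coloured by the limma call, with a dashed line at the median of all promoters (6). Pou4f1 has 47 CG, and members called higher and members that did not pass lie on either side of the set's median of 15.

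The LIM class held the most abundant member that changed in each direction. Lhx9, known for gonad, limb and diencephalon development, was higher in Eed cKO. It lies on chromosome 1 (138825186 to 138848577, GRCm38) and had 1408 and 1192 counts in Eed cKO, against 457 and 349 in WT. Every Eed cKO library lay above every WT library, and the means of 1300 ± 147 normalized counts in Eed cKO and 400.3 ± 74.2 in WT (SD, n = 2 each) were 3.25-fold apart. The log2 fold change was 1.71 ± 0.15 (SE, limma with Benjamini-Hochberg adjustment, adjusted p = 0.00679). Lhx2, its closest relative in the class, moved the other way. It lies on chromosome 2 (38339281 to 38369733, GRCm38) and had 1807 and 1582 counts in Eed cKO, against 2450 and 2560 in WT, so the groups did not overlap. Its mean fell to 1695 ± 152 in Eed cKO, or 68.1% of the 2489 ± 87.5 in WT (SD, n = 2 each), a log2 fold change of -0.56 ± 0.08 (SE, limma with Benjamini-Hochberg adjustment, adjusted p = 0.0206). Summed, the pair gave 3215 and 2774 counts in Eed cKO, against 2907 and 2909 in WT, so the sums overlapped. Per kilobase of exon, Lhx2 stood at 386 normalized counts in Eed cKO and 567 in WT, and Lhx9 at 137 in Eed cKO and 42.2 in WT, so Lhx2 was the higher of the pair in both groups.

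Lhx4 (chromosome 1, 155698031 to 155751684, GRCm38), a factor of pituitary and motor neuron development, had 20 and 12 counts in Eed cKO, against 0 and 0 in WT. Its Eed cKO mean was 10.7-fold a floor of 3 counts over both WT libraries, a ratio that leaves out the counting error of Eed cKO. Lhx4 was called higher (limma with Benjamini-Hochberg adjustment, adjusted p = 0.0176). Its relative Lhx3 stayed under the filter, with 5 and 0 counts in Eed cKO, against 3 and 0 in WT, and the groups overlapped. Isl1, a factor of motor, sensory and pancreatic lineages, had 13 and 10 counts in Eed cKO, against 3 and 0 in WT. The groups were apart, but Isl1 did not pass (log2 fold change 2.64 ± 0.77, adjusted p = 0.108, limma with Benjamini-Hochberg adjustment). Isl2 had 10 and 6 counts in Eed cKO, against 2 and 2 in WT, and was not tested.

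Lhx6, the interneuron factor, had 799 and 851 counts in Eed cKO, against 696 and 617 in WT. The groups did not overlap, yet the log2 fold change of 0.34 ± 0.09 did not pass (limma with Benjamini-Hochberg adjustment, adjusted p = 0.0885). Lhx8, its relative in forebrain cholinergic neurons, had 5 and 5 counts in Eed cKO, against 0 and 1 in WT. Lhx1 and Lhx5, both active in Cajal-Retzius cells, did not pass. Lhx1 had 47 and 59 counts in Eed cKO, against 28 and 42 in WT. Lhx5 had 25 and 22 counts in Eed cKO, against 8 and 27 in WT, and these groups overlapped. Lmx1a, known in the roof plate and cortical hem and in midbrain dopamine neurons, had 42 and 27 counts in Eed cKO, against 24 and 7 in WT, and did not pass (log2 fold change 1.30 ± 0.58). That value rested on which WT library was kept, with a log2 fold change of 2.12 without WT A (adjusted p = 0.051) and 0.49 without WT B (adjusted p = 0.537, limma with Benjamini-Hochberg adjustment). Lmx1b, needed by serotonin neurons, had 7 and 7 counts in Eed cKO, against 6 and 7 in WT. Of the 8 LIM genes tested, 2 were higher, 1 was lower and 5 did not pass, with a median log2 fold change of 0.97, and 5 had a limma p under 0.05 before adjustment. Lhx4 and Isl1 among them reached the filter through their Eed cKO libraries alone, so the filter set their direction.

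In the POU class, the Pou4 genes stood apart from the rest. Pou4f1 and Pou4f2, known for sensory neurons, retinal ganglion cells and, for Pou4f1, the habenula, were read in both Eed cKO libraries and in neither WT library. Pou4f1 (chromosome 14, 104461676 to 104467999, GRCm38) had 47 and 48 counts in Eed cKO, against 0 and 0 in WT. Its Eed cKO mean was 31.9-fold the floor of 3 counts, and it was called higher (limma with Benjamini-Hochberg adjustment, adjusted p = 0.00595). Pou4f2 (chromosome 8, 78433010 to 78436645, GRCm38) had 55 and 37 counts in Eed cKO, against 0 and 0 in WT. Its Eed cKO mean was 30.9-fold that floor, and it was called higher (limma with Benjamini-Hochberg adjustment, adjusted p = 0.00676). The last of the family, the hair cell factor Pou4f3, had 2 and 3 counts in Eed cKO, against 0 and 1 in WT, too few to test. The family summed to 192 counts (exact 95% Poisson interval 166 to 221) in Eed cKO and 1 count (0.0253 to 5.57) in WT. These were low levels all the same. Per kilobase of exon, Pou4f1 reached 10.2 and Pou4f2 14.4 normalized counts in Eed cKO, where Pou3f1 stood at 455.

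The Pou3 genes, expressed in neurons of the cortex and hippocampus, did not pass. Pou3f3 had 2599 and 2959 counts in Eed cKO, against 2582 and 3232 in WT. Pou3f1 had 1589 and 1911 counts in Eed cKO, against 1525 and 1950 in WT. Pou3f2 had 257 and 282 counts in Eed cKO, against 236 and 291 in WT. For all of these the Eed cKO values lay within the range of the WT values. The 95% interval of the log2 fold change ran from -0.36 to 0.26 for Pou3f3, from -0.33 to 0.38 for Pou3f1 and from -0.30 to 0.40 for Pou3f2 (limma), so differences within these intervals could not be seen with 2 mice a group. Pou3f4, which lies on the X chromosome and is known for the inner ear, had 59 and 67 counts in Eed cKO, against 70 and 84 in WT, and did not pass.

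Pou6f1, another abundant member, had 1998 and 1973 counts in Eed cKO, against 1920 and 2168 in WT, with an interval from -0.23 to 0.17. The broadly expressed octamer factor Pou2f1 had 232 and 217 counts in Eed cKO, against 224 and 250 in WT. Pou2f2, the octamer factor of B cells, had 334 and 440 counts in Eed cKO, against 352 and 423 in WT. The low gene Pou5f2, known from testis, had 6 and 11 counts in Eed cKO, against 11 and 10 in WT. The tuft cell factor Pou2f3 had 3 and 9 counts in Eed cKO, against 7 and 6 in WT, and was the single untested member with a lower mean in Eed cKO. Of the 11 POU genes tested, 2 were higher, 0 were lower and 9 did not pass, with a median log2 fold change of -0.03. The 2 higher genes, Pou4f1 and Pou4f2, reached the filter through their Eed cKO libraries alone, so the filter set their direction. In limma, 2 POU genes had a p under 0.05 before adjustment.

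**Figure D3:**
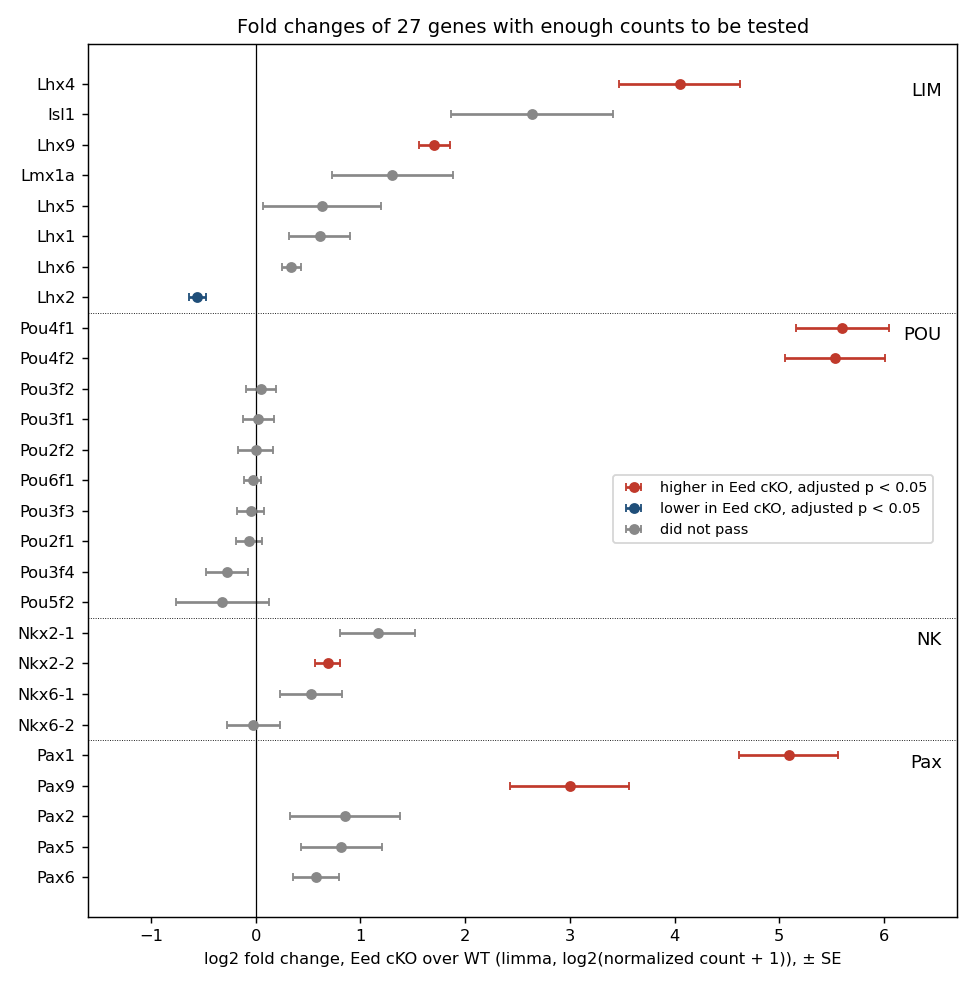
Log2 fold changes (Eed cKO over WT, limma on log2(normalized count + 1), bars ± SE) of 27 of the 29 tested members, by class and in order of size. Pou4f1, Pou4f2 and Pax1 lie above 5, Lhx2 is the one called gene below 0 at -0.56, and the other POU genes lie near or below 0. Without WT reads, the values of Pou4f1, Pou4f2 and Pax1 depend on the pseudocount.

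In the NK class, Nkx2-2 was among the genes higher in Eed cKO. Nkx2-2 (chromosome 2, 147177546 to 147194243, GRCm38), which acts in the ventral neural tube, oligodendrocytes and pancreatic islets, had 309 and 347 counts in Eed cKO, against 199 and 210 in WT. Its means of 328 ± 28.3 in Eed cKO and 203 ± 8.56 in WT were 1.62-fold apart (SD, n = 2 each, limma with Benjamini-Hochberg adjustment, adjusted p = 0.0303). In limma it missed the threshold without WT A (adjusted p = 0.056) and without WT B (adjusted p = 0.0508).

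The remaining Nkx2 genes were low or absent in WT. Nkx2-1, the factor of thyroid, lung and ventral forebrain, had 72 and 71 counts in Eed cKO, against 22 and 45 in WT. The groups did not overlap, but the log2 fold change of 1.17 ± 0.36 did not pass (adjusted p = 0.119, limma with Benjamini-Hochberg adjustment), and it was 1.67 without WT B, where it passed (adjusted p = 0.0334), and 0.66 without WT A (adjusted p = 0.172). The heart factor Nkx2-5 had 6 and 16 counts in Eed cKO, against 0 and 0 in WT. Nkx2-3, known for spleen and gut, had 7 and 6 counts in Eed cKO, against 0 and 0 in WT. Nkx2-4 had 6 and 6 counts in Eed cKO, against 0 and 0 in WT, and Nkx2-9 had 2 and 2, against 0 and 0 in WT. None of these last 4 reached the filter. The whole Nkx2 family summed to 402 and 448 counts in Eed cKO, against 221 and 255 in WT.

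Nkx6-1, of islet beta cells and motor neuron progenitors, had 72 and 44 counts in Eed cKO, against 42 and 36 in WT, and did not pass. Nkx6-2, expressed in oligodendrocytes, had 63 and 44 counts in Eed cKO, against 58 and 50 in WT, and the groups overlapped. Nkx1-1 had 4 and 0 counts in Eed cKO, against 0 and 1 in WT. Of the 5 NK genes tested, 2 were higher, 0 were lower and 3 did not pass, with a median log2 fold change of 0.69, and 3 had a limma p under 0.05 before adjustment. Over all 11 NK genes, 633 and 600 counts were found in Eed cKO, against 345 and 361 in WT.

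In the Pax class, the paralogues Pax1 and Pax9, both known for the vertebral column and the pharyngeal pouches, were higher in Eed cKO. Pax1 (chromosome 2, 147361925 to 147393295, GRCm38) had 33 and 33 counts in Eed cKO, against 0 and 0 in WT. Its Eed cKO mean was 22.2-fold the floor of 3 counts (limma with Benjamini-Hochberg adjustment, adjusted p = 0.00799). Pax9 (chromosome 12, 56691767 to 56712822, GRCm38) had 22 and 10 counts in Eed cKO, against 1 and 1 in WT. The ratio of 16.1 had a 95% counting interval from 4.11 to 139, since the WT sum was 2 counts, and the adjusted p was 0.0383 (limma with Benjamini-Hochberg adjustment). Pax9 was not called in limma without WT A (adjusted p = 0.0648) or without WT B (adjusted p = 0.0785), with a pseudocount of 5 (adjusted p = 0.0566), or in DESeq2 (adjusted p = 0.0761).

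Pax3 and Pax7, factors of neural crest and muscle precursors, were below the filter. Pax3 had 10 and 9 counts in Eed cKO, against 0 and 0 in WT, and Pax7 had 4 and 0 in Eed cKO, against 1 and 1 in WT. Pax2, Pax5 and Pax8, which share roles in the midbrain-hindbrain boundary and, for Pax2 and Pax8, in the kidney, gave no call. Pax2 had 38 and 13 counts in Eed cKO, against 12 and 12 in WT. Pax5, also the B-cell factor, had 14 and 17 counts in Eed cKO, against 10 and 7 in WT. Pax8, also a thyroid factor, had 10 and 12 counts in Eed cKO, against 2 and 4 in WT. The groups were apart for all of these, and summed they gave 62 and 42 counts in Eed cKO, against 24 and 23 in WT.

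Pax6, the progenitor, eye and islet factor and the most abundant Pax gene here, had 334 and 348 counts in Eed cKO, against 183 and 290 in WT. The groups did not overlap, but WT B lay close to Eed cKO, and the log2 fold change of 0.57 ± 0.22 did not pass (adjusted p = 0.18, limma with Benjamini-Hochberg adjustment). It was 0.91 without WT B, where Pax6 passed (adjusted p = 0.0252), and 0.24 without WT A, where it did not (adjusted p = 0.287, limma with Benjamini-Hochberg adjustment). Its relative Pax4, an islet factor, had 1 and 3 counts in Eed cKO, against 2 and 2 in WT. Of the 5 Pax genes tested, 2 were higher, 0 were lower and 3 did not pass, with a median log2 fold change of 0.86, and 3 had a limma p under 0.05 before adjustment. Pax1, Pax5 and Pax9 among them reached the filter through their Eed cKO libraries alone, so the filter set their direction. The other Pax genes tested, Pax2 and Pax6, were not called.

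Without Eed cKO A, limma called 0 genes of any kind, members included, and 12 members had a p under 0.05 before adjustment. Without Eed cKO B it also called 0 genes, and 11 members had such a p. The log2 fold change of Pou4f1 was 5.62 with Eed cKO A left out and 5.58 with Eed cKO B left out, against 5.60 with all libraries. That of Pax1 was 5.09 and 5.08, against 5.09, and that of Lhx9 was 1.59 and 1.82, against 1.71. Without WT reads, the values of Pou4f1 and Pax1 depend on the pseudocount. With all libraries they were 6.59 for Pou4f1 and 6.07 for Pax1 at a pseudocount of 0.5, and 3.39 and 2.93 at 5. In edgeR, Lhx9 and Pou4f1 were called without Eed cKO A (the library that looked female), and Lhx9 alone without Eed cKO B. Without WT B, the library low in choroid plexus transcripts, limma called 8 members higher and 1 lower, with Nkx2-1 and Pax6 in place of Nkx2-2 and Pax9. Isl1 was called in limma without WT A (adjusted p = 0.0401) and Lhx6 in edgeR without WT A (adjusted p = 0.0376). In the authors' deposited table, 6 members were higher (Lhx9, Pou4f1, Pou4f2, Pax1 and Nkx2-2 among them) and 1 was lower (Lhx2), and an adjusted p of 1 was given for 19 members, Lhx4 and Pax9 among them.

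By position, 6 members lie in a pair of chromosomal groups that each join NK genes to a Pax gene. The part of position in their values was not tested. Over all members, 21 of the 29 tested had a positive log2 fold change, against 7431 of all 15020 genes tested. The 21 include the 7 members that reached the filter through their Eed cKO libraries alone, whose direction the filter set. Of the 16 untested members, 15 had a higher mean in Eed cKO, but the share over all untested genes was not counted. On chromosome 2, Nkx2-4 starts 109 kb before Nkx2-2 in the reference orientation and Pax1 168 kb after it. Nkx2-2 and Pax1 were called higher, and Nkx2-4 had no WT read. On chromosome 12, Nkx2-9 starts 76.4 kb and Pax9 155 kb after Nkx2-1. Pax9 was called higher, Nkx2-9 had no WT read and Nkx2-1 did not pass. Other genes between or beside them were not called. The exoribonuclease gene Xrn2 had 882 and 862 counts in Eed cKO, against 1014 and 1066 in WT (limma with Benjamini-Hochberg adjustment, adjusted p = 0.11). The centrosome gene Kiz averaged 254 normalized counts in Eed cKO and 268 in WT, and Mbip had 196 and 184 in Eed cKO, against 186 and 204 in WT.

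**Figure D4:**
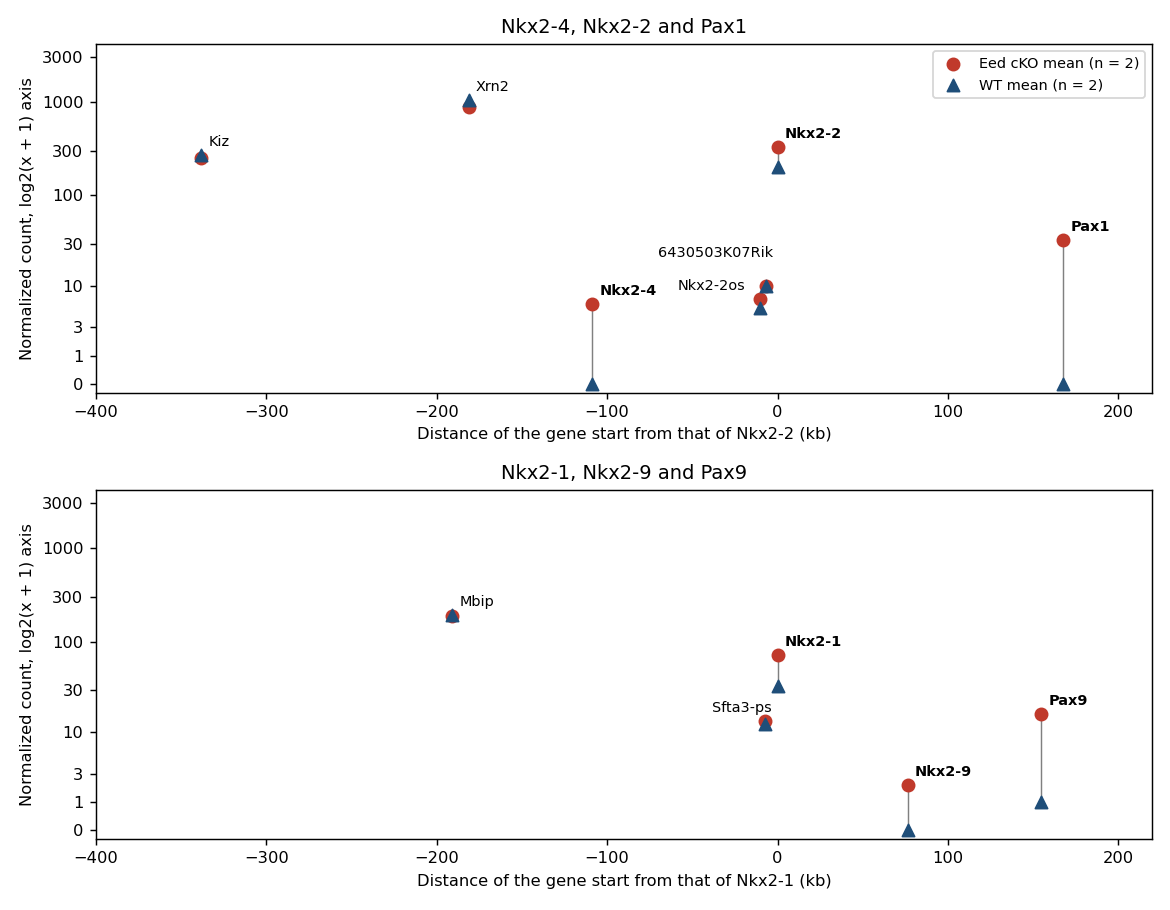
Mean normalized counts (log2(x + 1) axis, n = 2 each) in Eed cKO and WT of the genes in both NK and Pax groups, against the distance in kb of each gene start from that of Nkx2-2 (upper) or Nkx2-1 (lower), members in bold. The Eed cKO mean lies above the WT mean for all 6 members, while Kiz, Xrn2, Mbip and Sfta3-ps show overlapping symbols.

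Over the whole set, 73 other genes start within 100 kb of a member. Of these 64 were tested, 1 was higher (Rxrg, a retinoid receptor gene near Lmx1a, adjusted p = 0.0412), 1 was lower (Slc8b1, a mitochondrial exchanger gene near Lhx5, adjusted p = 0.0443; limma with Benjamini-Hochberg adjustment), and their median log2 fold change was 0.00 (0.00216). Near the 9 called members, 9 other genes start in that window, of which 7 were tested and 0 called in limma, edgeR or DESeq2, with 0 at an unadjusted p under 0.05 and a median of 0.13. Antisense transcripts may bear on some values, since no source used here gives the strand setting of the count. Lhx1os, which lies beside Lhx1 on the other strand without overlapping it, had 22 and 19 counts in Eed cKO, against 7 and 14 in WT. It did not pass (log2 fold change 0.98 ± 0.42, adjusted p = 0.223, limma with Benjamini-Hochberg adjustment). Nkx2-2os overlaps Nkx2-2 and had 10 and 4 counts in Eed cKO, against 6 and 5 in WT. Pax6os1 overlaps the start of Pax6 and had 8 and 2 counts in Eed cKO, against 3 and 2 in WT. Reads of overlapping coding genes may also be shared. Pou5f2 lies within Fam172a, which had 615 and 606 counts in Eed cKO, against 691 and 646 in WT, and Nkx6-2 overlaps Inpp5a, which had 876 and 843 in Eed cKO, against 980 and 933 in WT. Pax9 overlaps Slc25a21 on the opposite strand, which had 12 and 16 counts in Eed cKO, against 8 and 8 in WT. None of these 3 was called in limma.

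Among the proteins that LIM factors bind, 2 of 10 genes tested were higher, 0 were lower and the median log2 fold change was 0.26. Ldb2, a LIM-domain-binding cofactor, had 1622 and 2030 counts in Eed cKO, against 451 and 875 in WT (adjusted p = 0.0417, limma with Benjamini-Hochberg adjustment). Lmo4, a LIM-only protein that competes for Ldb cofactors, had 4811 and 4944 counts in Eed cKO, against 3766 and 3350 in WT (adjusted p = 0.0295, limma with Benjamini-Hochberg adjustment). Of the Eya, Dach and sine oculis homeobox genes that work in a network with Pax factors, 5 of 11 tested were higher, 0 were lower and the median was 0.74. Dach1, a nuclear corepressor gene, had 367 and 361 counts in Eed cKO, against 113 and 156 in WT (adjusted p = 0.0134, limma with Benjamini-Hochberg adjustment). Six3, a factor of the anterior forebrain and eye, had 89 and 65 counts in Eed cKO, against 28 and 18 in WT, and Dach2 had 99 and 70 in Eed cKO, against 30 and 25 in WT. Eya1 and Eya4 were the other genes called. Of 6 Groucho corepressor genes, which NK and Pax factors are known to recruit, 0 were higher and 1 was lower, with a median of 0.24. That gene, Tle1, had 684 and 794 counts in Eed cKO, against 1181 and 1079 in WT, or 65.9% of WT (adjusted p = 0.0266, limma with Benjamini-Hochberg adjustment).

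Homeobox genes outside these classes were counted for comparison. Of 52 tested outside the Hox clusters, 18 were higher and 4 lower. Of these, 16 reached the filter through their Eed cKO libraries alone, 10 of the higher genes among them, and of the other 36, 8 were higher and 4 lower. The higher genes included the Bar-class factor Barx2, with 104 and 95 counts in Eed cKO, against 24 and 24 in WT. The ventral eye factor Vax2 was also higher, with 47 and 51 counts in Eed cKO, against 0 and 0 in WT. Vax2 reached the filter through its Eed cKO libraries alone. The granule neuron factor Prox1 was lower, with 925 and 860 counts in Eed cKO, against 3381 and 4482 in WT. All 20 Hox genes tested were higher, and the 34 Hox genes of the table summed to 732 and 696 counts in Eed cKO, against 3 and 5 in WT. Those 20 reached the filter through their Eed cKO libraries alone.

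Genes that members are known to control or accompany in the tissues where they act gave calls in some lists and none in others. Of the sensory and retinal neuron genes of the Pou4 factors, 0 of 8 tested were called in limma, edgeR or DESeq2, with a median log2 fold change of -0.06 and 1 unadjusted p under 0.05. Of the serotonin neuron genes, 1 of 7 was higher (Gata3, with 26 and 15 counts in Eed cKO, against 3 and 4 in WT) and 1 was lower (Slc18a2, the vesicular monoamine transporter, with 198 and 185 in Eed cKO, against 320 and 289 in WT), and the median was -0.14. Gata3 reached the filter through its Eed cKO libraries alone. Of the cholinergic and motor neuron genes, 1 of 3 was higher. It was Ngfr, the low-affinity neurotrophin receptor, with 274 and 184 counts in Eed cKO, against 47 and 44 in WT. Of the catecholamine neuron genes, 3 of 6 were higher and 0 lower. En1 and En2 reached the filter through their Eed cKO libraries alone, which left 1 of 4 higher among the rest. It was the dopamine transporter Slc6a3, which had 42 and 37 counts in Eed cKO, against 12 and 12 in WT.

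Outside the nervous system, 5 of 8 heart genes tested were higher and 0 lower. Of the 5, 4 reached the filter through their Eed cKO libraries alone, and of the other 4 genes tested 1 was higher and 0 lower. Gata4 had 63 and 29 counts in Eed cKO, against 0 and 0 in WT. Tbx5 had 45 and 37 in Eed cKO, against 2 and 1 in WT. Hand2 had 25 and 16 in Eed cKO, against 0 and 0 in WT. Of the thyroid genes, 1 of 2 was higher, the iodide transporter Slc5a5, with 842 and 673 counts in Eed cKO, against 211 and 377 in WT. Of the lens and eye genes, 2 of 6 were higher, Crybb1 and Crym, and 0 were lower. Of the kidney genes, 1 of 5 was higher (Eya1) and 1 lower (Osr1, with 106 and 100 counts in Eed cKO, against 212 and 194 in WT). Of 4 pituitary genes, 2 of which reached the filter through Eed cKO alone, 1 was higher and 0 were lower, as were 1 and 0 of 5 pancreatic islet genes. Of 2 lung genes, 0 were called in limma, edgeR or DESeq2 and 0 had an unadjusted p under 0.05, and the surfactant gene Sftpc had 21 and 10 counts in Eed cKO, against 18 and 34 in WT. These lists share genes with one another, so their counts are not independent.

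Several members mark cell types that tissue from this region can hold, and the other markers of those types are given beside them. In the sums that follow, members are left out. The counts of genes tested, called or under an unadjusted p include the members that the lists hold (Lhx6, Lhx1, Lhx5, Lhx9 and Pou4f1). GABAergic interneuron markers, beside Lhx6, summed to 25391 and 24543 counts in Eed cKO, against 18700 and 19770 in WT, and 3 of 14 tested were higher (Sst, Dlx2 and Erbb4), with 12 at an unadjusted p under 0.05. Cajal-Retzius cell markers, beside Lhx1 and Lhx5, summed to 7799 and 7520 in Eed cKO, against 5913 and 6782 in WT, and 2 of 8 were higher (Ebf3 and Cacna2d2). The groups did not overlap in either sum, but these lists share Reln and Calb2, so the sums are not independent. Calb2 is also in the thalamic and habenular lists. Thalamic markers, beside Lhx9, overlapped between groups, with 5889 and 5533 counts in Eed cKO, against 5241 and 5594 in WT, and of the 9 tested Lhx9 was the 1 called in limma, and for 6 the unadjusted p was under 0.05. Habenular markers, beside Pou4f1, also overlapped, with 4502 and 4100 counts in Eed cKO, against 3955 and 4346 in WT. Of the 8 tested, Pou4f1 itself and Chrnb4, with 26 and 20 counts in Eed cKO, against 6 and 5 in WT, were higher, and both reached the filter through Eed cKO alone. For 4 of the 8 the unadjusted p was under 0.05.

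Oligodendrocyte lineage markers, which go with Nkx2-2 and Nkx6-2, summed to 72976 and 62365 counts in Eed cKO, against 73601 and 72505 in WT, and 1 of 11 was higher (Sox10, with 1783 and 1654 counts in Eed cKO, against 1303 and 1268 in WT). Neural stem cell and astrocyte markers, beside Lhx2 and Pax6, summed to 28321 and 28390 in Eed cKO, against 31443 and 39143 in WT, with 0 higher and 1 lower (Slc1a3) of 9. Granule neuron markers summed to 5725 and 5057 in Eed cKO, against 10159 and 13212 in WT, and 5 of 8 were lower, led by Prox1, Lct and Neurod1. Meningeal and fibroblast markers summed to 4660 and 4472 in Eed cKO, against 7154 and 8772 in WT, with 1 higher (Dcn) and 6 lower of 8. Choroid plexus markers, beside Lmx1a, summed to 36948 and 24451 in Eed cKO, against 34955 and 365 in WT, and 0 of 8 passed in limma, edgeR or DESeq2, with 0 at an unadjusted p under 0.05. Microglial markers summed to 9119 and 9218 in Eed cKO, against 7492 and 9201 in WT, with 0 of 8 called in limma and edgeR, 1 in DESeq2, 3 at an unadjusted p under 0.05 and C1qc nearest (adjusted p = 0.0697, limma with Benjamini-Hochberg adjustment). No marker in these lists was at 0 in every library. The part of these cell types in the members' values was not tested.

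**Figure D5:**
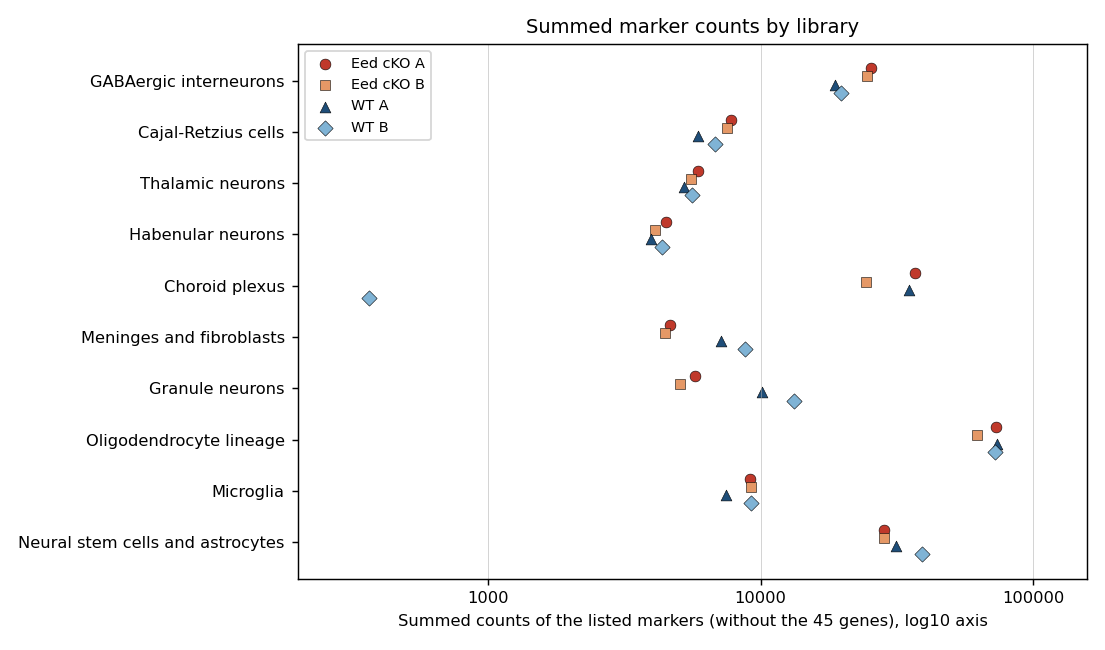
Summed counts of 10 lists of cell type markers (the 45 genes left out) in each library, on a log10 axis. Eed cKO libraries lie to the right of both WT libraries for interneuron and Cajal-Retzius markers. They lie to the left for granule neuron markers, meningeal markers, and neural stem cell and astrocyte markers. WT B stands alone for choroid plexus markers at 365 counts.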

How the data were processed

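RNA was measured in the dentate gyrus of 2 Eed cKO and 2 WT mice, replicates that the series' design text calls biological. Per the submitters' processing notes, reads were handled with HISAT2 2.1.0 and DESeq2 1.2.0 on build GRCm38. No source used here names the read counter, strand setting or annotation. The authors deposited a single table whose headers name a mean size-factor-normalized signal per group, a log2 fold change with its error, the p-value before and after adjustment, and a Wald score. The deposited adjusted p-value is 1 for 2999 genes and was read as missing there. The table held 0 unused columns of samples.

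Each deposited signal is the mean of 2 counts over their size factors (0.996 to 1.01), so whole reads of all 4 libraries were recovered for 100% of genes within 1e-08. Libraries were grouped by the deposited column. DESeq2 1.42.0 on these reads matched the deposited log2 fold changes to within 6.76e-05. The test was limma 3.58.1 (trend option) on log2(normalized count + 1), a scale that understates the change of low genes. Genes entered it when 2 or more libraries reached 10 normalized counts. Benjamini-Hochberg adjustment ran over 15020 genes with a threshold of 0.05. The prior degrees of freedom were 4.00, beside 2 residual ones. edgeR 4.0.16 (quasi-likelihood) on the recovered counts called 999 genes, against 967 in limma. The limma, edgeR and DESeq2 fits were tried on simulated data in which only well-expressed genes were changed. Members with few or no WT reads were outside that setting. Floors (3 counts over a group, or 1.49 normalized counts in the WT mean) and exact 95% Poisson intervals cover counting error only.

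The members and gene lists were chosen with earlier results of these data known. Named were Eed, called members, members averaging at least 100 normalized counts, members read in both Eed cKO libraries and in neither WT library, up to 3 called genes of each list by smallest p (or the 1 with the smallest p) and antisense genes of members. The other members, the neighbours of members, Xist, Ddx3y, Eya1 and Eya4 were named after their values were seen. Some genes taken by these rules are counted but not reported by name here. Gene positions and exon lengths come from GENCODE vM21 (GRCm38). Promoter sequences are from RefSeq, build GRCm38.p6.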

Additional observations from a re-analysis of the deposited data

How the results depend on the processing

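With 2 mice a group, counts of calls moved more with the libraries than with the test. Across all genes, 532 were higher and 435 lower in Eed cKO in limma, 568 and 431 in edgeR, 579 and 504 in DESeq2, and 271 and 202 with no filter on low counts. Leaving out 1 library at a time, in limma or edgeR, gave 0 to 864 genes higher and 0 to 750 lower, and 0 to 9 members higher and 0 to 1 lower. Without Eed cKO A, edgeR called 73 genes higher and 54 lower, and without Eed cKO B 43 and 30, where limma called 0 in either case (1059 and 1063 genes were higher at an unadjusted p under 0.05). Of the members, 8 were higher and 1 lower in limma, edgeR and DESeq2, with TMM scaling and with a pseudocount of 0.5, and 7 were higher with a pseudocount of 5 or with no filter, where Pax9 was lost in both, Nkx2-2 was lost and Pax3 gained in the second. A filter of 50 normalized counts left 15 members, of which 3 were higher and 1 lower, since Lhx4, Pou4f1, Pou4f2, Pax1 and Pax9 were no longer tested. Of the genes named, 0 with a call changed sign under these settings. Under every scaling the median log2 fold change of all genes lay between -0.00318 and 0.00862. No paired analysis was possible because the deposited columns carry no replicate number for the recovered libraries. With a lone Eed cKO or WT library, its spread was assumed to be like that of the other group. Depth limits the members with no WT read, whose folds are given over a floor of 3 counts, and the 16 untested members, whose means ran from 2.0 to 11.02 normalized counts in Eed cKO and from 0 to 6.46 in WT.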
